A study of Mus musculus with 2 samples.

Results

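Transcript levels of 9 enzymes of glycolysis and lactate metabolism (Hk1, Hk2, Aldoa, Aldoc, Pgk1, Eno1, Pkm, Ldha and Ldhb) and of Gpd1 were examined in cultured hippocampal neural stem cells. These 10 genes were taken by name, and all 10 were among the 15364 genes of the merged count table. The cultures had been started from hippocampi of male mice, strain C57BL6/J, at 6 weeks of age, and single cells were sorted for SORT-seq, a plate method that counts polyadenylated transcripts at their 3′ end with molecular identifiers. Activated cells grew in serum-free medium with heparin and with FGF2 and EGF at 20 ng/mL each. Quiescent cells had lost EGF, kept FGF2 and received BMP4 at 50 ng/mL, and counted as quiescent after 3 days. Cells leaving quiescence had gone back to the activation medium with 0.5 µg/mL of noggin, which binds BMP4, for 24 h or 48 h. Each culture was sorted into 4 gates by how brightly unstained granules shone (punctate autofluorescence), ordered as low, low-mid, mid-high and, at the top, high. All 4 cultures thus came from wild-type cells that had been expanded with growth factors, and no in vivo cell was measured.

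The per-cell table held 174 quiescent, 151 24 h exit, 151 48 h exit and 164 activated cells, 32 to 46 per culture and gate, where the series text states 47 per condition. Summed counts per culture ran from 3046628 to 6563487. Each condition was 1 culture, so differences between conditions have no replicate check, and the intervals given are exact 95% Poisson or binomial intervals for counting error only. The quiescent and 24 h exit cells shared 1 plate and the 48 h exit and activated cells the other, so plate and condition cannot be told apart where a comparison crosses plates. Levels of the neural stem or progenitor marker list summed to between 4344 and 6821 CPM, counts scaled to a library total of 1000000. Its members did not move together. In the quiescent, 24 h, 48 h and activated cultures Fabp7 was at 4901, 2369, 2152 and 2234 CPM. Gfap was at 72.5, 17.4, 2.42 and 1.37 CPM and Nes at 56.9, 152, 402 and 657. Hes5 and Hopx were also lower outside quiescence, and Vim was higher. The neuron, neuroblast and oligodendrocyte lists reached at most 12.8, 41.8 and 167 CPM in sum. All 6 microglial, 4 endothelial and 4 pericyte or fibroblast markers stayed under 20 counts over all cells.

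Glycolysis splits glucose into pyruvate. Several of its steps can be run by more than 1 enzyme of the same kind, encoded by separate genes: hexokinase 1 or 2 at the entry, aldolase A or C at the splitting of fructose 1,6-bisphosphate, lactate dehydrogenase A or B at the exit. Lactate dehydrogenase B-rich enzyme is known for favouring the use of lactate and A-rich enzyme for its production, and aldolase C is the form typical of brain and a common marker of astrocytes and radial glia-like stem cells. Gpd1, the cytosolic glycerol 3-phosphate dehydrogenase, draws on the product of aldolase, makes the backbone of glycerolipids and, with the mitochondrial enzyme Gpd2, carries reducing equivalents into mitochondria.

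Upstream sequences of the aldolase and lactate dehydrogenase genes are shown because the balance within both pairs differed between cultures, and because Ldha and Aldoa are textbook targets of hypoxia-inducible factor. RefSeq windows of GRCm38.p6 matched 9 of the 10 members, all but Gpd1, and each sequence covers the 250 bases before an annotated start, 5′ to 3′ on the gene's strand. Capitals mark ACGTG on either strand, 1 form of the core of the hypoxia response element. It also lies in the E-box CACGTG, where it matches on both strands. The form GCGTG was neither searched for nor marked. Ldha, at chr7:46842274-46855627, had 2 windows and Aldoa, at chr7:126795234-126800994, had 3, of which 1 each is shown. Ldhb, at chr6:142490249-142507957, had 1 window, and Aldoc, at chr11:78323073-78327781, had 2, of which the first is shown.
Ldha, chr7:46845554-46845803, plus strand: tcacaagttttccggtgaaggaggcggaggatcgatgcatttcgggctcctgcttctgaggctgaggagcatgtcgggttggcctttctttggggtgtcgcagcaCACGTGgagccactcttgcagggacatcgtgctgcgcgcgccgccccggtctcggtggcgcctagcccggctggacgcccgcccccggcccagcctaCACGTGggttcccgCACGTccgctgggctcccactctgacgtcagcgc
Ldhb, chr6:142507958-142508207, minus strand: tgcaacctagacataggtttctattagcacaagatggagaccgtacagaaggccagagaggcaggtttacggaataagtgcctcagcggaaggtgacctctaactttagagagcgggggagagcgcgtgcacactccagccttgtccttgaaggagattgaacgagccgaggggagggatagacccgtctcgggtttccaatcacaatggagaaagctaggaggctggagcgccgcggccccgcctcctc
Aldoa, chr7:126799255-126799504, minus strand: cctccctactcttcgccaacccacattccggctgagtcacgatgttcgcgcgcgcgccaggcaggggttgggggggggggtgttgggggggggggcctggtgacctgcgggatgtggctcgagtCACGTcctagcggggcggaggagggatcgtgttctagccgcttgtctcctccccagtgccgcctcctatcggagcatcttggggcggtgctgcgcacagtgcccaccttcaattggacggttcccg
Aldoc, chr11:78322823-78323072, plus strand: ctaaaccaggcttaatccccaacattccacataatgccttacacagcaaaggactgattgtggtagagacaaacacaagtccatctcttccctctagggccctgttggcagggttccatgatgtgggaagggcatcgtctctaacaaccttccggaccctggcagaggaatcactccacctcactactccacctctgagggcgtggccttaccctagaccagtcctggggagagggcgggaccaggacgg
The Ldha window held 5 matches of ACGTG, 4 of them from its 2 E-boxes, and the Ldhb and Aldoc windows held 0. The Ldhb and Aldoc windows shown each hold the unmarked form GCGTG, so they do not lack the core. The Aldoa window held 1. The second windows of Ldha and Aldoc also held 0, and the other windows of Aldoa held 0 and 1, the latter in sequence that overlaps the window shown. Of all 32851 RefSeq windows of this length, 16.6% held ACGTG and 6.02% held CACGTG. A match of letters describes the sequence only.

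Gpd1 was at 17.4 CPM in the quiescent culture (95% interval 13.9 to 21.6), 159.7 (145.7 to 174.4) after 24 h of exit, 156 (145 to 169) after 48 h and 77 (70.4 to 84) in activated cells. In CPM it was thus lowest in quiescence and highest during exit, with overlapping intervals at 24 h and 48 h, and the activated culture lay between. Per 1000 spike-in counts of the same wells, a scale that keeps differences in transcript content per cell, Gpd1 was at 1.34, 8.87, 13.7 and 9.14 in the quiescent, 24 h, 48 h and activated cultures. Quiescence was lowest on both scales, while on the spike-in scale 48 h stood above 24 h and the activated culture slightly above 24 h. Across the gates from low to high, Gpd1 measured 7.13, 14.9, 14.5 and 26.1 CPM in quiescence. The 24 h exit gates measured 112, 160.0, 182 and 166 CPM, and no gate of the 24 h culture overlapped a quiescent one. At 48 h the gates were at 93.3, 168, 168 and 178 CPM, the low gate standing well below the other three and just above the range of the activated gates. Activated gates ran the other way, with 93.1, 89.7, 71.1 and 69.5 CPM from low to high.

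As a ratio, Gpd1 was 9.15-fold higher at 24 h than in quiescence (7.24 to 11.7), 8.96-fold higher at 48 h (7.13 to 11.4) and 4.41-fold higher in activated cells (3.50 to 5.63). These 3 ratios share the quiescent culture. The ratio of 48 h to activated cells was 2.03 (1.81 to 2.29), and that of 48 h to 24 h was 0.979 (0.870 to 1.10), with a log2 ratio of 0.58 on the spike-in scale. Among cells called G0 by the authors alone, 138 at 24 h and 146 in quiescence, the log2 ratio of Gpd1 with 10 CPM added was 2.65, beside 2.63 in all cells.

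More cells showed the transcript as well as more of it. After thinning each cell to 12748 counts, which left out 6 to 29 cells per culture, a Gpd1 count was seen in 16% of 156 quiescent cells (exact binomial interval 10.7 to 22.7%), where 27% of unthinned cells had one. The share at equal depth was 66.4% of 122 cells at 24 h, 69.3% of 140 cells at 48 h and 53.2% of 158 activated cells. Quiescent gates spanned 11.1 to 24.4%, and every gate of the other cultures lay at 45.7% or above. The oligodendrocyte precursor marker list of Pdgfra, Cspg4, Olig1 and Olig2 was, in sum, higher in both exit cultures than in quiescence. Its 4 members summed to 1966, 3670, 3565 and 1880 CPM in the quiescent, 24 h, 48 h and activated cultures, nearly all from Olig1 and Olig2, while the defining marker Pdgfra was at 1.87 to 4.27 CPM. Cspg4 did not follow the sum, at 21.6, 18.4, 30.8 and 10.2 CPM in the same order. The part of this list in the Gpd1 result was not tested.

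**Figure D1:**
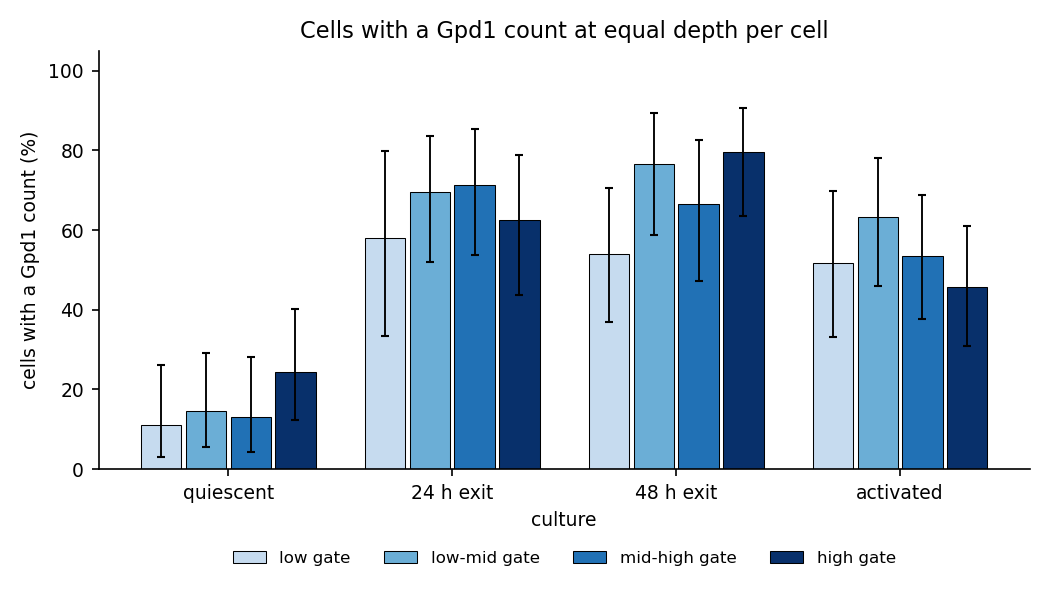
Share of cells with at least 1 Gpd1 count after every cell was thinned to the same total, in percent, by culture (x axis) and autofluorescence gate (shade), with exact 95% binomial intervals as bars. Quiescent gates lie between 11.1 and 24.4%, below all gates of the exit and activated cultures.

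Within the glycerol 3-phosphate dehydrogenases, Gpd1 made up 4.05% of the summed counts of Gpd1, Gpd1l and Gpd2 in quiescence, 21.1% at 24 h, 31.6% at 48 h and 28.3% in activated cells. Gpd2, the mitochondrial partner, was at 368, 534, 289 and 158 CPM in the same order, so its level in activated cells was below that in quiescence while that of Gpd1 was above it. Gpd1l, the Gpd1-like cytosolic enzyme, stayed between 37.5 and 63 CPM.

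At the entry of glycolysis, Hk1, the hexokinase common in brain, was at 83.7 CPM in quiescence, 107 at 24 h, 99.7 at 48 h and 85.1 in activated cells. Gate values of Hk1 spanned 68.6 to 132 CPM and overlapped between the cultures in all 5 comparisons made. Hk2, the inducible hexokinase, was far lower and rested on few counts: 35 in quiescence, 95 in activated cells, and 5 and 13 in the 24 h and 48 h exit cultures. This corresponds to 7.27 and 14.5 CPM, and to 1.64 and 3.15 CPM during exit. All activated gates, at 10.6 to 17.9 CPM, lay above all quiescent ones, at 5.80 to 9.51, and both lay above every exit gate, at 0 to 4.66. The share of Hk2 in Hk1 and Hk2 counts was 7.99% in quiescence (5.63 to 10.9), 1.51% at 24 h (0.491 to 3.48), 3.07% at 48 h (1.64 to 5.19) and 14.5% in activated cells (11.9 to 17.5). Hk2 was therefore lower in both exit cultures than in either the start or the end state, on 18 counts in the 2 exit cultures together.

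Aldolase C dominated the aldolases in quiescence and much less so in activated cells. Aldoc measured 3245 CPM in quiescence (3194 to 3296), 2820 at 24 h, 880.1 at 48 h and 778 in activated cells (757 to 799). From low to high gate the quiescent values were 3483, 3575, 3192 and 2958 CPM. The 24 h values were 1671, 2415, 3488 and 3270 CPM, so only the 2 lower gates stood below the quiescent range. At 48 h the gates were at 615, 522, 843 and 1271 CPM, all under the lowest 24 h gate, and the activated gates were at 623, 779.9, 807 and 808 CPM.

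Aldoa, the broadly expressed aldolase, ranged over 489 to 598 CPM between cultures, a narrower range than that of Aldoc. The counts of the 2 genes compare tagged molecules and need no length correction, although capture of the 2 transcripts may differ. Aldoc made up 85.6% of aldolase A and C counts in quiescence (85.1 to 86.1), 83.3% at 24 h (82.6 to 84), 64.3% at 48 h (63 to 65.6) and 56.5% in activated cells (55.5 to 57.5). Between 24 h and 48 h, on different plates, Aldoc was 3.20-fold lower (3.08 to 3.33), and from quiescence to the activated culture 4.17-fold lower (4.04 to 4.31). Per 1000 spike-in counts Aldoc was at 249, 157, 77.1 and 92.3 in the quiescent, 24 h, 48 h and activated cultures, and these log2 ratios were -1.01 and -1.42. On that scale 48 h was below the activated culture, the reverse of the order in CPM. Shares within a pair do not depend on the scale. With 1 count or more in 97.1 to 100% of thinned cells of each culture, the Aldoc difference lay in the amount per cell, with a median of 38.5 counts per thinned quiescent cell, 33 at 24 h, 7 at 48 h and 9 in activated cells.

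**Figure D2:**
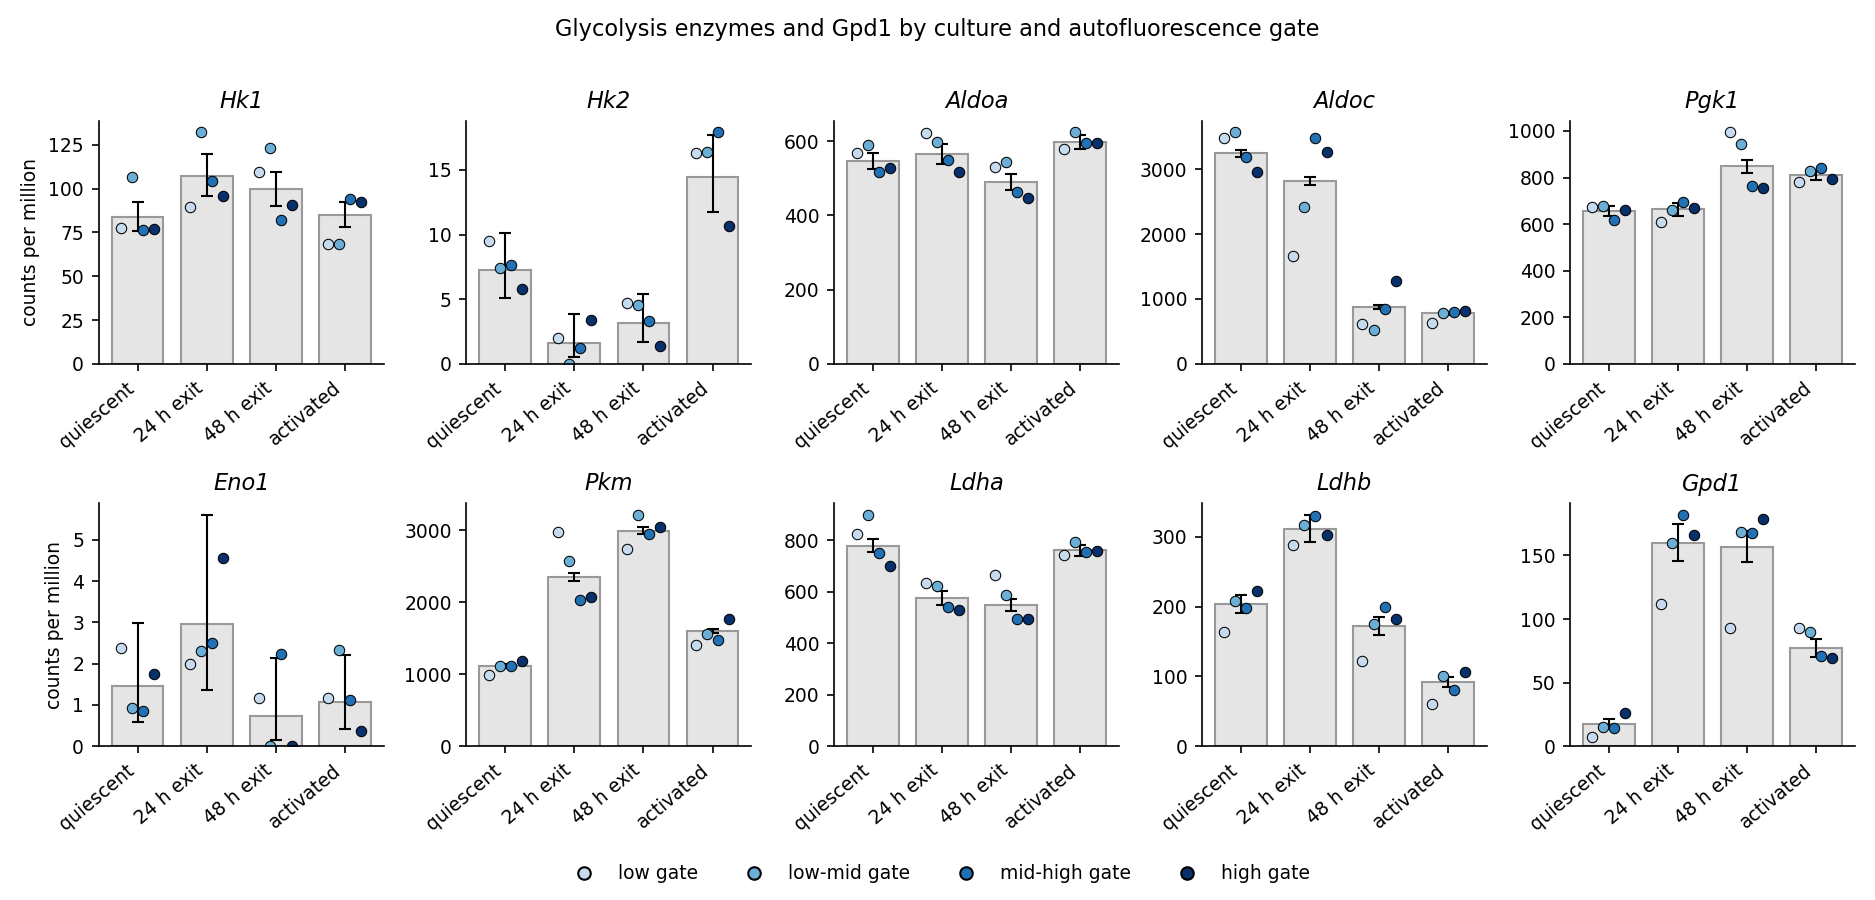
Level of each gene in CPM (y axis, 1 scale per gene) by culture. Grey bars are culture sums with exact 95% Poisson intervals and points are the 4 autofluorescence gates of that culture. Gpd1 is lowest in quiescence, Aldoc is high in the quiescent and 24 h cultures, Pkm is highest at 48 h, and Eno1 stays under 5 CPM in all gates.

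In the payoff phase, Pgk1, phosphoglycerate kinase, was at 656 CPM in quiescence, 663 at 24 h, 847 at 48 h and 812 in activated cells. Pgk1 per 1000 spike-in counts was at 50.3, 36.8, 74.2 and 96.3 in the same order. Its gates in the first 2 cultures, 608 to 693 CPM, lay below those of the other 2, 757 to 995 CPM, a split that follows the plates. Eno1, enolase 1, gave 7, 9, 3 and 7 counts in the quiescent, 24 h, 48 h and activated cultures, at or below 2.95 CPM, although it is a housekeeping enzyme. Of the 441 windows of 60 bases in the last 500 bases of its longest coding transcript, 70.1% also occur in transcripts of 4 other genes, so these counts cannot be read as the level of Eno1. The same share was 20.2% for Ldhb, 5.22% for Pgk1 and 0 for the other 7 members. No direction is therefore given for Eno1, and Ldhb and Pgk1 may miss or share some reads.

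Pkm, pyruvate kinase of the M type, was at 1118 CPM in quiescence (1089 to 1149), 2352 at 24 h (2297 to 2407), 2994 at 48 h (2941 to 3047) and 1600 in activated cells (1570 to 1631). Quiescent gates ran from 986 to 1190 CPM and those of the 24 h culture from 2032 to 2971, with no overlap. The 48 h gates, at 2733 to 3216 CPM, lay above all activated ones, at 1409 to 1762. In CPM both exit cultures were thus above both other states. Per 1000 spike-in counts Pkm was at 85.7 in quiescence, 131 at 24 h, 262 at 48 h and 190.0 in activated cells, so that the activated culture stood above 24 h. It was 2.10-fold higher at 24 h than in quiescence (2.03 to 2.18), and the log2 ratio, 1.06 with 10 CPM added, was 1.00 among G0 cells alone and 0.95 without the low gate. On the spike-in scale it was 0.60, where the median of all genes also shifted, to -0.29. The 2 splice forms M1 and M2 cannot be told apart in counts per gene.

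At the exit of the pathway the 2 lactate dehydrogenases did not move together. Ldha was at 779.8 CPM in quiescence, 576 at 24 h, 549 at 48 h and 761 in activated cells. Ldhb was at 203 CPM (191 to 216), 311 (292 to 332), 172 (160 to 185) and 92.2 (85 to 99.8) in the same order. All 24 h gates of Ldhb, at 289 to 330 CPM, lay above the quiescent ones, at 164 to 222, and all activated gates, at 60.5 to 106, lay below every other culture. For Ldha, no exit gate, at 493 to 664 CPM, reached the quiescent range of 702 to 900.2 or the activated range of 744 to 792. Ldhb per 1000 spike-in counts was at 15.6, 17.3, 15.1 and 10.9 in the quiescent, 24 h, 48 h and activated cultures. Its log2 ratio of 24 h to quiescence was 0.14 on that scale, beside 0.59 in CPM. That of 48 h to 24 h was -0.19, beside -0.82, so both Ldhb differences were small there. Ldha was at 59.8 in quiescence and 90.4 in activated cells on the spike-in scale, with both exit cultures below these.

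The share of Ldhb in both was 20.7% in quiescence (19.5 to 21.9), 35.1% at 24 h (33.3 to 36.9), 23.9% at 48 h (22.3 to 25.5) and 10.8% in activated cells (10.0 to 11.6). The share was thus highest at 24 h and lowest in activated cells, and the 48 h and quiescent intervals were barely apart. The ratio of Ldhb in activated to quiescent cells was 0.454 (0.409 to 0.502), a log2 ratio of -1.06 that was -0.48 on the spike-in scale, where the median of all genes was 0.47.

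Over the 10 genes, a 2-fold call was made on ratios with 10 CPM added to both levels, which keeps low genes out. By this rule 3 of the 9 members with at least 20 counts were called between activated and quiescent cells. Gpd1 was higher, against 9.12% of all 11011 genes, and Aldoc and Ldhb were lower, against 6.5%. At 24 h against quiescence Gpd1 and Pkm were called higher, against 1.23% of genes, and no member was called lower, against 2.27%. From 24 h to 48 h Aldoc alone was called lower, against 2.62%, and none higher, against 4.49%. Between 48 h and activated cells no member was called, against 1.25% of genes higher and 1.63% lower, with Gpd1 (log2 0.94), Pkm (0.90), Hk2 (-0.90) and Ldhb (0.83) nearest. At 48 h against quiescence Gpd1 and Pkm were called higher, against 4.47%, and Aldoc lower, against 4.75%. Ratios without the added 10 CPM also passed 2-fold for Hk2 at 24 h against quiescence (0.226), at 48 h against quiescence (0.434) and at 48 h against activated cells (0.218), and for Gpd1 at 48 h against activated cells (2.03). The medians over the members tested were 0.13, 0.05, -0.08, 0.18 and -0.16 in these 5 comparisons, beside 0.07, -0.01, -0.03, -0.08 and -0.02 over all genes. The members therefore did not move as 1 block, and single enzymes set the pattern.

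Clusters of the per-cell table followed the cultures: cluster 1 held 166 quiescent cells, cluster 2 held 163 activated cells, cluster 0 held 145 cells of the 24 h culture and cluster 3 held 109 of the 48 h culture. Another 41 cells of the 48 h culture lay in cluster 0 with the 24 h cells. Since clusters were formed from the same cells, their levels are a description. In the 48 h culture, Aldoc was at 1477 CPM in cluster 0 and 668 in cluster 3, against 2881 in the 24 h cells of cluster 0 and 779 in the activated cells of cluster 2. Ldhb was at 250.5 and 145 CPM and Gpd1 at 196 and 143 CPM in these 2 clusters of the 48 h culture. The cluster 0 cells of the 48 h culture thus lay between the 24 h and cluster 3 cells in Aldoc and Ldhb. The 24 h cells, on the other plate, had Ldhb at 320 CPM. Pkm of the 48 h cluster 0 cells, at 3355 CPM, was above both. Their Gpd1 was above cluster 3, but its interval (170 to 224) overlapped that of the 24 h cells, at 162 CPM (148 to 178). Median counts per cell were close, 26256 in cluster 0 and 24767 in cluster 3.

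**Figure D3:**
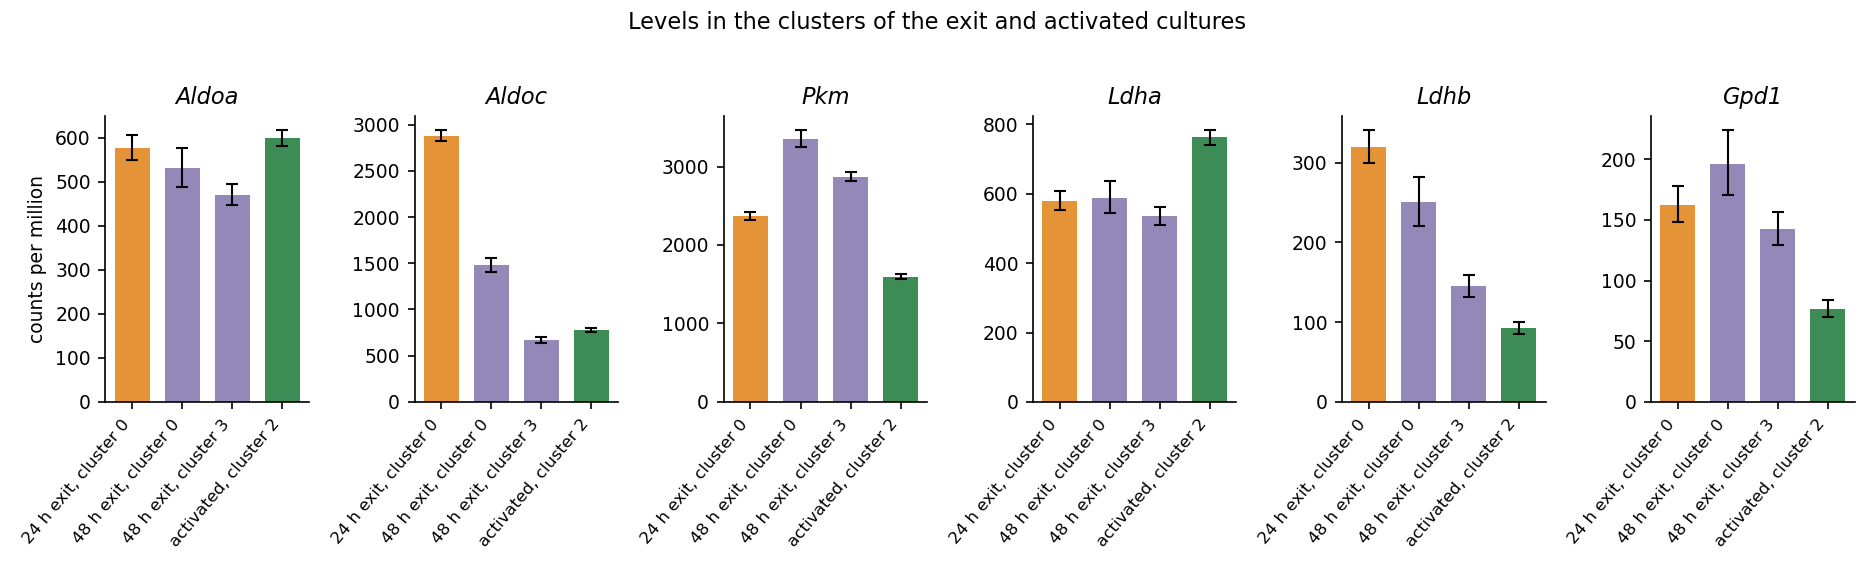
Levels in CPM (y axis) of 6 genes in the main cluster of the 24 h and activated cultures and in both clusters of the 48 h culture (x axis), with exact 95% Poisson intervals. At 48 h, Aldoc is at 1477 CPM in cluster 0 and 668 in cluster 3, and Ldha differs little between the 2.

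Levels also differed by called phase inside the 48 h culture. The 22 cells called G0 had Aldoc at 2156 CPM, Ldhb at 303 and Gpd1 at 279, and the 58 cells called G2M had 574, 140.3 and 122 CPM. Among cells called S or G2M only, 108 at 48 h and 140 in the activated culture, the log2 ratio of 48 h to activated cells was 0.78 for Gpd1, 0.73 for Ldhb and 0.87 for Pkm. Aldoc, at 0.18 in all cells, was at -0.09 among them.

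Across the gates, the share of Ldhb in Ldha and Ldhb counts was 16.6% in the low and 24.1% in the high gate of quiescent cells, 31.3% and 36.4% at 24 h, 15.6% and 26.9% at 48 h, and 7.51% and 12.3% in activated cells. It was higher in the high gate in 4 of 4 cultures. The log2 ratio of Ldhb to Ldha rose by 0.22 per gate on average, and an exact permutation test of the gate labels within cultures, two-sided, gave p = 0.00041, or 0.00123 adjusted over the 3 isoform pairs by Benjamini-Hochberg. For all 3 pairs the units permuted were the gate sums inside each culture. The p-values therefore do not measure agreement over replicate cultures. The slopes were 0.22, 0.12, 0.34 and 0.21 in the quiescent, 24 h, 48 h and activated cultures.

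Aldoc followed the gates in 3 of 4 cultures. Its share of aldolase counts went from 72.9% in the low to 86.4% in the high gate at 24 h, from 53.7 to 74% at 48 h and from 51.8 to 57.6% in activated cells, and was 86 and 84.8% in quiescence. The mean slope of log2 Aldoc over Aldoa was 0.25 per gate (exact permutation p = 0.00469, adjusted 0.00703), with -0.04 in quiescence, and without the 24 h culture the adjusted p was 0.0530. Hk2 over Hk1 had a mean slope of -0.15 (exact permutation p = 0.488) on few Hk2 counts, and without the 24 h culture, where 5 counts set it, the slope was -0.30 with an adjusted p of 0.0219.

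**Figure D4:**
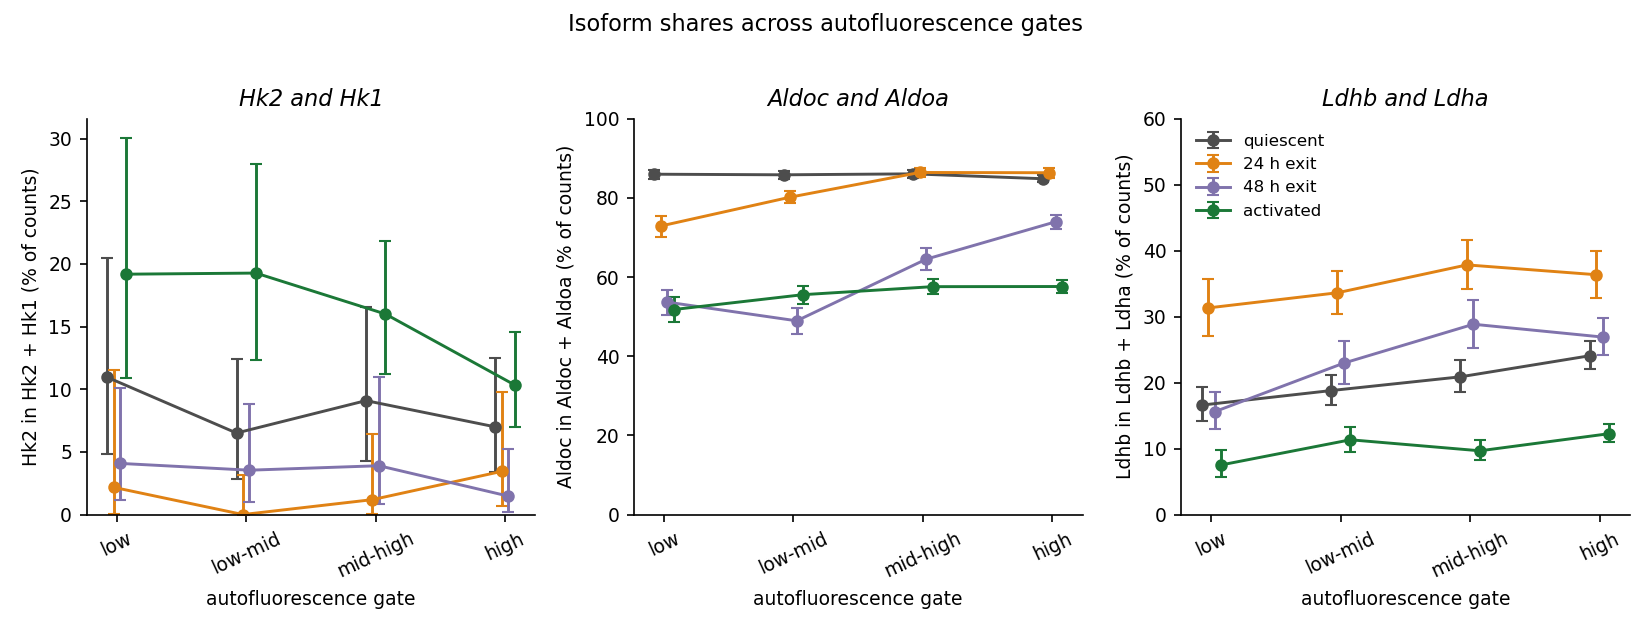
Share of Hk2, Aldoc and Ldhb in the counts of each isoform pair (y axis, percent) across the 4 autofluorescence gates (x axis) of each culture (colour), with exact 95% binomial intervals. The Ldhb share is higher in the high than in the low gate in 4 of 4 cultures, and the Aldoc share in 3 of 4.

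For single genes, the high gate was set against the low gate over the 4 cultures with edgeR's quasi-likelihood test, culture as a block, on 8739 genes. Of the 8 members tested, 2 rose in the high gate, against 1.9% of all genes, and none fell, against 0.481%. At an unadjusted p under 0.05, edgeR had 3 members higher and 0 lower, beside 1402 of all 8739 genes in either direction. DESeq2 called 2 of 8 higher and 0 lower, beside 94 higher and 30 lower of 1904 genes with an adjusted p. Ldhb rose with a log2 ratio of 0.61 ± 0.14 (SE, adjusted p = 0.0208, higher in 4 of 4 cultures) and Aldoc with 0.69 ± 0.16 (adjusted p = 0.0283, higher in 3 of 4). Gpd1 was at 0.64 ± 0.22 (edgeR adjusted p = 0.133), higher in 3 of 4 cultures and lower in the activated one. The test gave Pkm 0.22, Hk1 0.22, Pgk1 0.09, Aldoa 0.02 and Ldha -0.06 with adjusted p-values of 0.494 to 0.96, and Hk2 and Eno1 were below the count filter. Trimmed-mean (TMM) scaling bears on these values, since with plain totals the median of all genes was -0.16.

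Both calls were narrow. Without the 48 h culture the edgeR adjusted p was 0.206 for Ldhb and 0.300 for Aldoc, without the activated culture 0.111 and 0.0814, without the quiescent culture 0.0721 for Ldhb, without the 24 h culture 0.0968 for Aldoc, and with totals in place of TMM 0.0808 and 0.0559. Gpd1 reached an adjusted p of 0.0136 without the activated culture and 0.0418 when all 16 sums were fitted. Median counts per cell were 1.65- to 2.17-fold higher in the high than in the low gate of each culture. At 48 h the number of cells called G0 was 0 of 42 in the low gate and 13 of 40 in the high gate, and cluster 0 held 4 and 17 of them. With only the cells of each culture's main cluster, Ldhb was at 0.56 and Aldoc at 0.57, both with an adjusted p of 0.0565, and the permutation test of the isoform slopes gave adjusted p-values of 0.001085 for Ldhb and 0.0115 for Aldoc. With cells thinned to equal depth, the mean slopes were 0.25 for Ldhb over Ldha and 0.27 for Aldoc over Aldoa. Their adjusted p-values by the permutation test were 0.0032 and 0.0070. Beyond this thinning, the part of transcript content in these results was not tested.

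**Figure D5:**
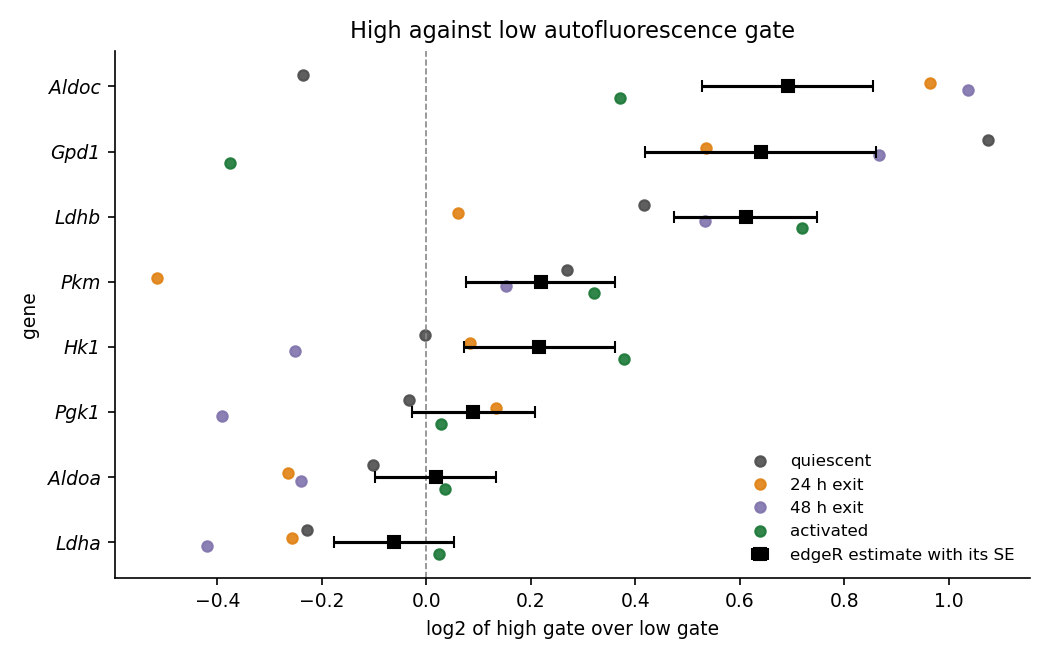
Log2 ratio of the high to the low gate (x axis) for the 8 genes tested (y axis). Black squares are edgeR estimates with their SE after TMM scaling, and coloured points are single cultures from plain CPM with 10 CPM added. Ldhb is above 0 in 4 of 4 cultures, and Gpd1 is above 0 in all but the activated culture.

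Other steps of the pathway were read from lists of named genes. Here too the counts of genes 2-fold apart use ratios with 10 CPM added, while the ratios printed are plain, and genes past 2-fold only without the added 10 CPM are named where they touch a count for activated against quiescent cells. By this rule 9.12% of all 11011 genes were higher and 6.5% lower in activated than in quiescent cells, which stands beside each list below. Of the 10 other glycolysis genes with at least 20 counts, Pfkm and Pfkl, phosphofructokinases of muscle and liver type, were 2-fold lower in activated than in quiescent cells (0.341- and 0.276-fold) and none was higher by this rule. Without the added 10 CPM, Pfkp was 2.35-fold higher and the enolase gene Eno3 0.408-fold. Pfkm made up 82% of phosphofructokinase counts in quiescence, 89.4% at 24 h, 86.4% at 48 h and 72% in activated cells, where the platelet type Pfkp took 17.2%, against 1.09 to 2.92% elsewhere. At 24 h Gpi1, glucose 6-phosphate isomerase, was 2.04-fold higher than in quiescence, and Pfkm was 0.480-fold from 24 h to 48 h. In the gate test 0 of 8 of these genes were called by edgeR, with 3 higher at an unadjusted p under 0.05, and 0 of 5 by DESeq2. At that unadjusted p 1402 of all 8739 genes passed in either direction. By the adjusted p edgeR called 1.9% of all genes higher and 0.481% lower. These values also stand beside the lists below.

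Among glucose and lactate transporters and other controls of flux, 1 of 6 genes was 2-fold higher and none lower in activated than in quiescent cells with 10 CPM added. Without it Pfkfb2 was at 0.375-fold and Pfkfb1, on 17 and 5 counts, at 2.49-fold. The neuronal glucose transporter gene Slc2a3 was 4.90-fold higher in activated than in quiescent cells and 0.161-fold at 48 h against activated cells, and Slc2a1 was 0.333-fold from 24 h to 48 h. Between gates 0 of 5 were called by edgeR, with 2 higher at an unadjusted p under 0.05, and DESeq2 gave none of them an adjusted p. At the entry of pyruvate into mitochondria, 2 of 12 genes were 2-fold lower in activated than in quiescent cells, and Pdp1 was 2.33-fold higher only without the added 10 CPM. These were the pyruvate dehydrogenase kinases Pdk2 (0.121-fold) and Pdk1 (0.105-fold), and Pdk2 was 4.37-fold higher at 48 h than in activated cells. Pdk2 also rose in the high gate (log2 0.83, edgeR adjusted p = 0.0476, close to the threshold of 0.05), the only one of 11 tested. At an unadjusted p under 0.05, edgeR had 2 of the 11 higher and 0 lower, and DESeq2 called 0 of 4.

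Of the other genes of glycerol phosphate metabolism, Gpd2 (0.429-fold) and the acyltransferase Agpat5 (0.454-fold) were 2-fold lower in activated than in quiescent cells, and Agpat3 was at 0.463-fold without the added 10 CPM. Per 1000 spike-in counts Gpd2 was at 28.2 in quiescent and 18.7 in activated cells and Agpat5 at 12.8 and 9.01, under 2-fold apart. Between gates 2 of 7 rose by edgeR: Gpd2 by 0.58 (adjusted p = 0.0159) and Agpat5 by 0.58 (0.0208). At an unadjusted p under 0.05, edgeR had 2 higher and 0 lower, and DESeq2 called 2 of 3 higher. The 8 genes of the pentose phosphate pathway were all under 2-fold with 10 CPM added (Rpia, on 40 and 11 counts, was 2.67-fold higher without it), with 7 of 8 higher in activated than in quiescent cells and a median log2 ratio of 0.42 beside 0.07 over all genes, and 0 of 6 were called between gates by edgeR, 0 at an unadjusted p under 0.05 and 0 of 3 by DESeq2. Per 1000 spike-in counts, Taldo1 (8.49 and 19.1), Pgd, Pgls, G6pdx and Rpia were more than 2-fold higher in activated than in quiescent cells. Tkt (7.63 and 14.4), Rpe and H6pd were higher by less than 2-fold.

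Glycogen and gluconeogenesis genes were lower in activated than in quiescent cells in 11 of 13 cases, with a median log2 ratio of -0.53. Over all genes 55.1% were higher and the median was 0.07. Of the 13 genes, 5 were 2-fold lower or more with 10 CPM added, beside 6.5% of all genes. Pygl, on 27 and 4 counts, was 4.95-fold higher without the added 10 CPM. The glycogen phosphorylases of muscle and brain type, Pygm (0.0325-fold) and Pygb (0.115-fold), and Ugp2, which makes the glycogen precursor UDP-glucose (0.404-fold), were among the 5 lower genes. Ugp2 per 1000 spike-in counts was at 26.3 in quiescent and 16.4 in activated cells, under 2-fold apart. Pygm and Pygb were also 2-fold lower from 24 h to 48 h (0.172- and 0.353-fold). At 48 h against quiescence 6 of 12 genes were 2-fold lower, beside 4.75% of all genes. Pygm, Pygb, the pyruvate carboxylase gene Pcx and the fructose bisphosphatase gene Fbp1 stood furthest apart among the 6. Their ratios were 0.267, 0.272, 0.235 and, on 1 count at 48 h, 0.0172 (0.000428 to 0.0989). Against quiescence at 24 h Fbp1 was lower (0.116-fold), and Pygm was 8.22-fold higher at 48 h than in activated cells. Between gates edgeR called 2 of 12 genes of this list higher and 0 lower, with Pygm up by 0.90 (edgeR adjusted p = 0.0208). At an unadjusted p under 0.05, edgeR had 6 higher and 0 lower, and DESeq2 called 1 of 4 higher and 0 lower.

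Hypoxia targets other than the members were mixed. The 11 measured had a median log2 ratio of -0.78 for activated against quiescent cells, beside 0.07 over all genes. Of them, 4 were 2-fold lower and 1 higher in activated cells with 10 CPM added. Without it Ddit4 (0.419-fold) and Bnip3 (0.479-fold) were also past 2-fold. Vegfa was at 0.183-fold, P4ha1 at 0.216-fold and Mxi1 at 0.274-fold, while Adm, the adrenomedullin gene, was 98.5-fold higher (51.7 to 216) at 184 CPM. From 24 h to 48 h Adm was 6.40-fold higher, Vegfa 0.327-fold and Bnip3l 0.440-fold. At 48 h against quiescence Adm was 46.1-fold higher, and P4ha1, Mxi1 and Bnip3l were 0.348-, 0.329- and 0.396-fold. Adm was 0.468-fold at 48 h against activated cells, and 0 of 11 hypoxia targets were called between gates by edgeR, with 2 higher at an unadjusted p under 0.05, and 0 of 2 by DESeq2. Across the 5 comparisons of cultures, CPM values of Ldha, Pgk1 and Aldoa, which are textbook members of the same group, all stayed within 2-fold. Hk2, Pkm, Aldoc, Ldhb and Gpd1 each passed 2-fold in CPM in at least 1 comparison. Ldha, Pgk1 and Aldoa therefore do not stand for all the members.

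Over the 16 sums of culture and gate, the genes whose log2 level with 10 CPM added was most like that of a member were listed for 5 members among 9054 genes, as a description. The sums share 4 cultures and 2 plates. For Gpd1 these were Pdxk, pyridoxal kinase (Pearson r = 0.96), Adora1, the adenosine A1 receptor (0.95), and Dbx2, a homeobox factor (0.94). For Ldha they were Akr1a1 (0.96), Zmynd8 (0.94) and Tceal8 (0.93), for Ldhb Caskin1 (0.98), Grina (0.97) and Ppargc1a (0.97), for Aldoc Ttyh1 (0.98), Lcat (0.98) and Paqr8 (0.97), and for Hk2 Tnc (0.93), Myl6 (0.93) and Ywhag (0.92). After each culture's mean was taken out, r was highest for Lcat with Aldoc (0.96) and for Akr1a1 and Zmynd8 with Ldha (0.88 each), and was 0.21 for Tnc with Hk2. The other listed genes lay between 0.61 (Myl6 with Hk2) and 0.84 (Caskin1 with Ldhb), with Dbx2 at 0.82 with Gpd1. Between members, Aldoa and Ldha had r = 0.68 over all sums and 0.90 within cultures, and Pkm and Gpd1 had 0.87 over all sums and -0.01 within cultures.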

How the data were processed

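The data are molecule counts from 2 plates of 384 wells. The authors deposited an expected count per gene and cell, whose values invert to whole identifier counts under 4096 identifiers, and per the file headers a table with condition, gate, phase, cluster and fluorescence intensity in arbitrary units. BWA 0.7.15, R 4.2.0 and Seurat 4.1.1 and the builds hg19 and mm10 are named in the submitters' processing notes. Cell filters, doublet handling and clustering settings are not given in the sources used here. Another 128 wells outside the per-cell table were left out.

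Every kept cell's counts entered the sum of its culture and of its gate within the culture, and each sum was scaled to its total (CPM). Ratios between cultures were taken with 10 CPM added for log2 values, a call needing 2-fold and at least 20 counts over both cultures, with no test. Intervals are exact. The high and low gate sums, as whole numbers, went into the quasi-likelihood test of edgeR 4.0.16 (R 4.3.3) after filterByExpr and TMM scaling, with Benjamini-Hochberg adjustment at 0.05, the culture being the replicate, with 3 residual degrees of freedom. The 4 cultures are different states, and the test reads the mean gate effect over them, which need not be shared by all 4. Isoform ratios, with 0.5 counts added, were tested by permuting gates within cultures (331776 permutations). DESeq2 1.42.0 was an alternative. Other steps used scipy 1.17.1, pandas 2.3.3 and numpy 2.4.6 under Python 3.11.15, with matplotlib 3.10.9 for plots, and the methods were tested on simulated data.

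Genes named beside the members were those of 7 pathway lists at least 2-fold apart or called between gates, at most 4 per list and comparison by size, and the 3 most like each of 5 members; 1 gene that met this rule is not reported here. Members and lists were chosen with earlier results of these data known. Alternatives were set beforehand, except leaving out Rn45s, phase subsets and main-cluster cells, which were chosen after seeing the data.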

Additional observations from a re-analysis of the deposited data

Results flagged for a closer look

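Of the 10 members, Hk2 had 1 culture standing apart in the log2 ratio of the high to the low gate, by the gap to its nearest neighbour relative to the range of the 4 cultures. The 24 h exit culture was at 0.16, where the others lay between -0.37 and -0.30, and it rested on 5 Hk2 counts in all. About 1 in 20 such groups would stand apart by chance.

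The 128 wells outside the per-cell table, which have no condition or gate and entered no comparison, also held counts of the members. These were 904 of Aldoc, 722 of Pkm, 202 of Pgk1, 125 of Aldoa, 100 of Ldha, 63 of Ldhb, 33 of Gpd1 and 18 of Hk1. No well without a cell is labelled, so no background level can be set beside them.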

How the results depend on the processing

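Counts of members 2-fold apart stayed within 1.5 times their value in 52 of 62 alternatives. At 24 h against quiescence the count was 1 instead of 2 on the spike-in scale and in G0 cells, and 1 to 2 when single gates were left out. From 24 h to 48 h it was 2 instead of 1 on the spike-in scale. At 48 h against activated cells it was 2 instead of 0 with 1 CPM added and with totals free of mitochondrial and ribosomal protein genes, 1 with TMM, spike-in or thinned counts, and 0 to 1 when single gates were left out. Leaving out 1 gate moved the Hk2 share in activated cells over 13.6 to 17.5%, the Aldoc share over 81.9 to 84.6% at 24 h and 56.4 to 67.4% at 48 h, and the Ldhb share over 19 to 21.5% in quiescence, 22.3 to 26.3% at 48 h and 9.80 to 11.3% in activated cells. With thinned cells the Aldoc share was 84.3% at 24 h and 54.9% in activated cells. Leaving out 1 culture gave slopes per gate of 0.18 to 0.26 for Ldhb over Ldha, 0.17 to 0.34 for Aldoc over Aldoa and -0.30 to -0.071 for Hk2 over Hk1.

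Between gates, edgeR called 0 members with totals in place of TMM, without the culture block and in main-cluster cells, and 0 to 1 when single cultures were left out. The 166 genes higher and 42 lower in the high gate became 75 and 255 with totals, 305 and 109 without a filter, 349 and 173 with all 16 sums by gate, 417 and 221 with gate rank, 0 and 0 without the block (134 genes at unadjusted p under 0.05) and 79 and 15 in main-cluster cells. DESeq2 called 94 higher of 1904 genes with an adjusted p. Leaving out 1 culture gave 19 to 146 higher and 1 to 34 lower, the lowest without the 48 h culture. Aldoa, at 0.02, was at -0.14 with totals, -0.0020 with gate rank, -0.031 in main-cluster cells and -0.023 to 0.083 when single cultures were left out, and Pgk1 was at -0.070 with totals. The cause of these shifts was not tested. No paired analysis was possible because the labels give each plate group only replicate number 1, although the gate test itself blocks on culture. Depth limits Hk2 and Eno1 most, since 3 counts equal 0.457 to 0.985 CPM in a culture.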
